A study of Mus musculus with 34 samples.

Results

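The Iroquois (Irx) and odd-skipped related (Osr) genes are 2 families of transcription factors that pattern the early limb bud. All 7 rows of the expression table with the names *Irx1*, *Irx2*, *Irx3*, *Irx5*, *Irx6*, *Osr1* and *Osr2* were taken, 5 Irx and 2 Osr genes of 22040 genes listed, and they were compared between WT and CKO limb buds.

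RNA-seq was done on whole E11.5 mouse limb buds with 3 biological replicates in each of 2 groups. CKO embryos carried Prrx1-Cre and floxed *Hnrnpk* alleles (*Hnrnpk* fl/fl), so that *Hnrnpk*, the gene of an RNA- and DNA-binding protein, is deleted by a Cre that is active in limb bud mesenchyme and not in the overlying ectodermal ridge. WT embryos were the controls. Whether the WT embryos carried floxed alleles or Cre, how many embryos made up a replicate, and the share of forelimb and hindlimb tissue were not given in the sources used here. The question was whether the loss of *Hnrnpk* changes the transcript levels of patterning genes.

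Irx proteins are homeodomain factors of the TALE class, and their genes lie in clusters of paralogs that are conserved between vertebrates. *Irx3* and *Irx5* are known to act together in the progenitors of the early hindlimb bud, where they are needed for proximal and anterior skeletal elements. *Osr1* and *Osr2* encode zinc finger proteins. *Osr1* marks connective tissue progenitors of the limb, including those that support muscle formation, and both Osr genes are known from the interzone that becomes the joint. *Osr1* is also known from intermediate mesoderm and the kidney, and *Osr2* from the palate.

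On GRCm38 with GENCODE vM21, *Irx3* (ENSMUSG00000031734) lies at chr8:91798525-91802067 on the minus strand. *Irx5* (ENSMUSG00000031737) at chr8:92357625-92376286 and *Irx6* (ENSMUSG00000031738) at chr8:92674288-92680956 follow on the plus strand, 556 kb and 298 kb further on. *Irx1* (ENSMUSG00000060969) lies at chr13:71957921-71963723 on the minus strand and *Irx2* (ENSMUSG00000001504) at chr13:72628820-72634198 on the plus strand, with 665 kb between them. *Osr1* (ENSMUSG00000048387) stands on its own at chr12:9570116-9581500 and *Osr2* (ENSMUSG00000022330) at chr15:35296098-35303305, both on the plus strand. The exons of *Irx3* share 124 bases with the antisense gene *Irx3os*, and those of *Irx6* share 152 bases with the antisense gene *Gm45505*. The libraries were stranded, but the strand setting of the counting was not given, so reads from these stretches could belong to either gene.

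The values are FPKM, fragment counts scaled by exon length and library size, so levels can be compared between genes. The library size used as divisor was not given and was inferred from the FPKM. Reads recovered on listed genes, also those without a whole read number, were 1.11 and 1.03 times the inferred size in CKO replicates 2 and 3. They were 0.947 to 0.968 times that size in the other 4. Summed FPKM ran from 261472 in CKO replicate 1 to 439098 in CKO replicate 2. The cause of these differences between libraries was not tested. With the median-ratio scaling of the libraries in place of the deposited one, the log2 fold changes of *Irx3* and *Irx5* given below were -0.54 and -0.45. A fit on the recovered reads divided by their sum (voom) gave -0.66 and -0.58. The 6 libraries held between 17140869 and 24624434 recovered reads on listed genes. *Hnrnpk* itself was 193, 195 and 185 FPKM in WT replicates 1, 2 and 3 and 127, 142 and 135 FPKM in CKO, lower in all 3 CKO libraries than in any WT library, with a limma adjusted p of 0.334, or 0.0575 with the replicate number as a block. A residual level of this size was measured over the whole gene, including exons outside the floxed stretch, and in all cells of the bud. The 7 markers of limb mesenchyme were all detected, with a summed level of 309 to 318 FPKM in WT and 266 to 293 FPKM in CKO. The main component of variation over all tested genes, with 52.6% of the variance, set replicate 1 of both groups apart from the other 4 libraries, and the next, with 26.0%, separated WT from CKO.

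*Irx3*, *Osr1*, *Osr2* and *Irx5* were the members at higher levels, while *Irx2*, *Irx1* and *Irx6* were near the lower end. In WT limb buds the level of *Irx3* was 15.8 ± 4.49 FPKM (SD, n = 3), above 74.4% of the genes tested. *Osr1* was at 15.2 ± 5.30 FPKM, and the ranges of *Irx3* and *Osr1* overlapped. *Osr2* was at 10.1 ± 1.56 FPKM with a range that overlapped that of *Osr1*. *Irx5* followed at 6.22 ± 0.818 FPKM, below every *Osr2* value and above 46.1% of the genes tested. A large step separated these genes from *Irx2* at 0.774 ± 0.111 FPKM and *Irx1* at 0.507 ± 0.241 FPKM, whose ranges overlapped. *Irx6* was lowest at 0.106 ± 0.0157 FPKM. In CKO limb buds the range of *Irx3* took in those of *Osr1* and *Osr2*, and the 3 low genes kept their order by mean.

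**Figure D1:**
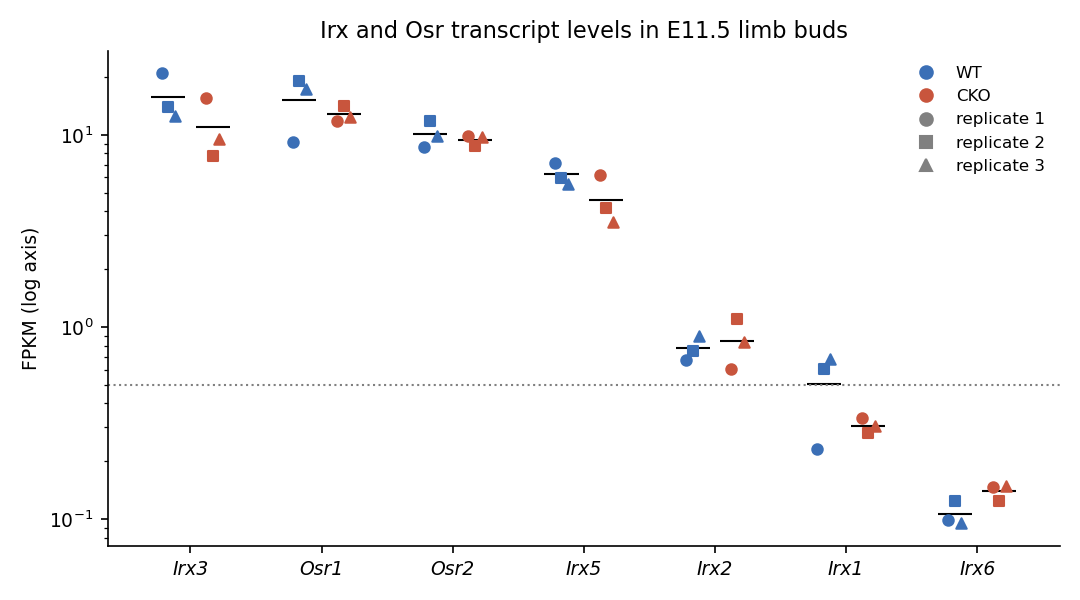
Transcript level in FPKM on a log axis for the 7 genes in each of the 6 libraries. Colours give the group, symbols the replicate number, bars the group mean, and the dotted line the mean of 0.5 FPKM over all libraries that a gene needed to be tested. The WT and CKO points overlap for each of the 5 tested genes, and for *Irx3* and *Irx5* each CKO point lies below the WT point with the same symbol.

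*Irx3* and *Irx5* carried nearly all Irx transcript in the bud. With *Irx4* included, the 6 Irx genes summed to 24.0 ± 4.95 FPKM in WT and 17.3 ± 5.08 FPKM in CKO. *Irx3* and *Irx5* made up between 86.3% and 94.4% of that sum over the 6 libraries, with the highest shares in replicate 1 of both groups.

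Across the 7 genes, the mean FPKM was lower in CKO for 5 (*Irx1*, *Irx3*, *Irx5*, *Osr1* and *Osr2*) and higher for 2 (*Irx2* and *Irx6*). A gene was tested when its mean over the 6 libraries was at least 0.5 FPKM, which 5 of the 7 genes and 12305 genes in all met. The log2(FPKM + 0.1) values were compared with limma, and p values were adjusted by the Benjamini-Hochberg method over all genes tested. None of the 5 tested genes passed an adjusted p of 0.05, and none had an unadjusted p under 0.05. Over all genes 0.065% passed the adjusted and 8.31% the unadjusted threshold. No member met the combination of at least a 2-fold difference and an unadjusted p under 0.05, which 82 genes (0.666%) met. The median log2 fold change of the 5 genes was -0.18, against 0.0048 over all genes tested, and 4 of the 5 were lower, against 49.1% of all genes. With the replicate number as a block in the fit, 1 of the 5 genes, *Irx3*, passed the adjusted threshold, against 2.81% of all genes in either direction and 1.68% that were lower in CKO. The *Irx5* value passed the unadjusted threshold in that fit and missed the adjusted one. *Irx3* and *Irx5* were the 2 tested genes that were lower in CKO within each of the 3 replicate numbers, a pattern that 21.3% of all tested genes had.

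*Irx3* was 20.9, 13.9 and 12.5 FPKM in WT replicates 1, 2 and 3, and 15.6, 7.79 and 9.46 FPKM in CKO replicates 1, 2 and 3. Replicate 1 was the highest library of each group, and CKO replicate 1 lay above WT replicates 2 and 3, so the groups overlapped. Within each number the CKO library was the lower one, by 0.42, 0.83 and 0.40 on the log2 scale. The log2 fold change was -0.55 ± 0.29 (SE, n = 3, 95% confidence interval -1.21 to 0.11), with a limma adjusted p of 0.680. The exact permutation p was 0.3, in a test that cannot give a p below 0.1 with 3 libraries in each group. With the replicate block the same change had an SE of 0.12, an interval of -0.80 to -0.30 and a limma adjusted p of 0.0266. This call was lost in the blocked fit without replicate number 2, which gave a log2 fold change of -0.41 and a limma adjusted p of 0.180. That fit also had fewer libraries and fewer genes passing, so the loss cannot be credited to number 2 alone. Without number 1 or number 3 the blocked change was -0.62 in both fits, with limma adjusted p values of 8.0e-05 and 0.0379. Over all genes 2277 of 12319 passed without number 1, 86 of 12293 without number 2 and 204 of 12287 without number 3. Leaving out a number was chosen after the data were seen.

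*Irx5*, the neighbour of *Irx3* in the cluster, was 7.13, 5.96 and 5.56 FPKM in WT replicates 1 to 3 and 6.17, 4.14 and 3.50 FPKM in CKO. Again CKO replicate 1 lay inside the WT range while CKO replicates 2 and 3 lay below it. The log2 differences within numbers were -0.21, -0.51 and -0.65. The log2 fold change was -0.46 ± 0.22 (SE, n = 3; 95% confidence interval -0.96 to 0.04), with a limma adjusted p of 0.635 and an exact permutation p of 0.3. The replicate block gave an interval of -0.73 to -0.19 and a limma adjusted p of 0.0690, which did not pass the threshold. Without number 1, where 2277 of 12319 genes passed, the blocked fit gave a limma adjusted p of 0.0014. Without number 2 or 3, where 86 and 204 genes passed, it gave 0.258 and 0.543. Leaving out a number was chosen after the data were seen.

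**Figure D2:**
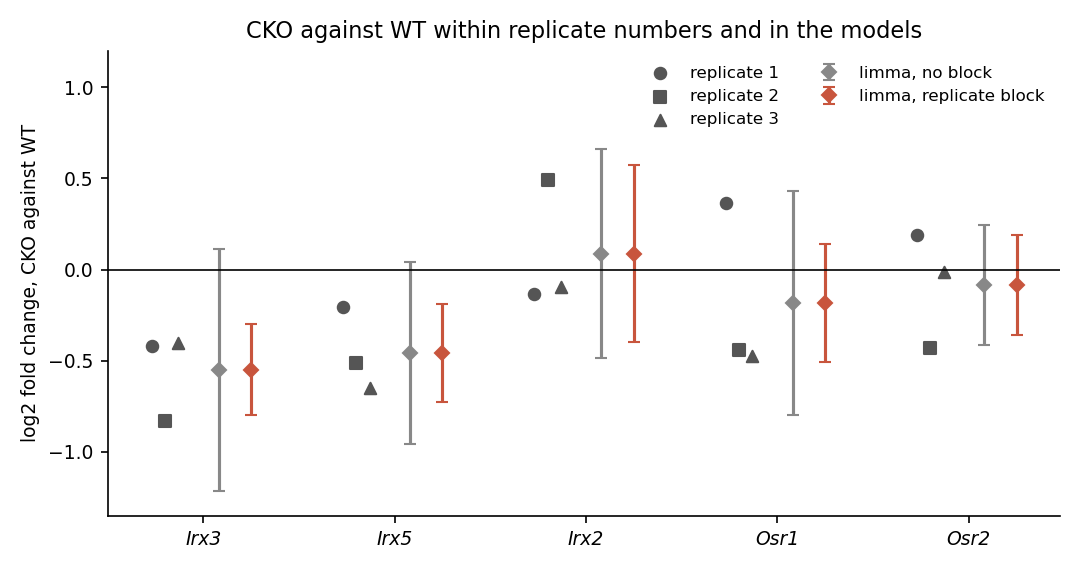
Log2 fold change of CKO against WT for the 5 tested genes. Dark symbols are the differences within replicate numbers 1, 2 and 3, and diamonds are the limma estimates without and with the replicate block, with 95% confidence intervals. The blocked intervals of *Irx3* and *Irx5* lie below 0, those of *Irx2*, *Osr1* and *Osr2* include 0, and the *Osr1* difference within number 1 (0.36) lies opposite to those within numbers 2 and 3.

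The lower levels of *Irx3* and *Irx5* were set beside the mesenchyme markers, since in whole tissue fewer cells of a type and less RNA per cell cannot be told apart. Of the 7 markers, 6 had a lower mean in CKO, and the log2 difference of their summed level was -0.14. Measured against that sum, *Irx3* differed by -0.34, -0.57 and -0.32 within the 3 numbers and *Irx5* by -0.13, -0.26 and -0.57, on the log2 scale. Markers of other cells moved too, and their part in the differences was not tested. The summed red blood cell markers ran from 35803 to 62043 FPKM in WT and from 29263 to 138695 FPKM in CKO, highest in CKO replicate 2, the library with the lowest *Irx3*. All 5 muscle precursor markers had a higher mean in CKO, with sums of 13.6 to 28.7 FPKM in WT and 24.9 to 31.7 FPKM in CKO, and 5 of 6 endothelial markers a lower one, with 21.0 to 30.3 and 15.0 to 24.1 FPKM. Replicate 1 of both groups, where *Irx3* and *Irx5* were highest, had the lowest sums of red blood cell markers.

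*Irx3* and *Irx5* moved closely together from library to library. Pearson's r of their log2 levels was 0.91 over the 6 libraries, which share their depth, stage and tissue mix, so it is given as a description. The ratio of *Irx3* to *Irx5* in FPKM stayed between 1.88 and 2.93. The log2 difference between the 2 genes was 1.30 ± 0.21 in WT and 1.21 ± 0.28 in CKO (SD, n = 3), a change of -0.09 with an exact permutation p of 0.7. With 3 libraries in each group this test cannot give a p below 0.1, so unequal change was not detectable rather than absent.

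*Osr1* was 9.16, 19.1 and 17.3 FPKM in WT replicates 1 to 3, and 11.8, 14.1 and 12.4 FPKM in CKO. The WT libraries were far apart, with replicate 1 lowest of all 6 libraries and replicates 2 and 3 highest, and all CKO values lay between them. Accordingly the difference within number 1 was 0.36 on the log2 scale, and within numbers 2 and 3 it was -0.44 and -0.48. The log2 fold change over all libraries was -0.18 ± 0.26 (SE, n = 3; 95% confidence interval -0.80 to 0.43), with a limma adjusted p of 0.896, or 0.539 with the replicate block, and an exact permutation p of 0.6. In replicates 2 and 3 alone, chosen after the data were seen, it was -0.46 with a limma adjusted p of 0.0125, where 15.1% of all genes passed. The blocked fit without number 1, likewise chosen after the data were seen, gave a limma adjusted p of 0.0036. In that fit 2277 of 12319 genes passed. Whether *Osr1* was called lower thus differed between the fits with and without number 1.

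The spread of *Osr1* in WT was 9.11 times what read counting alone would give with 341 to 946 reads, so it exceeded counting error. The summed markers of kidney and trunk mesoderm, a tissue in which *Osr1* is also expressed, were 2.90, 10.7 and 10.2 FPKM in WT and 3.30, 5.79 and 6.15 FPKM in CKO, lowest in replicate 1 of both groups. Nearly all of this sum was *Six2*, a gene that limb connective tissue also expresses. Its level was 2.33, 10.4 and 9.93 FPKM in WT and 2.97, 5.60 and 5.84 FPKM in CKO, and it set the order of the sum. The other markers were near the floor and did not share that order. *Wt1* (0.233, 0.196 and 0.0814 FPKM in WT, 0.107, 0.0506 and 0.0880 in CKO) was highest in replicate 1 of both groups. So was *Pax2* (0.195, 0.0386 and 0.0424 FPKM in WT, 0.0715, 0.0386 and 0.0310 in CKO). *Foxf1* was highest in replicate 3 of both groups. *Pax8* was read in replicate 1 of each group alone, at 0.0092 FPKM in WT and 0.0091 in CKO. The part of such cells in the *Osr1* level was not tested.

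*Osr2* was 8.68, 11.8 and 9.82 FPKM in WT replicates 1 to 3 and 9.90, 8.72 and 9.73 FPKM in CKO, with every CKO value inside the WT range. The log2 fold change was -0.08 ± 0.14 (SE, n = 3; 95% confidence interval -0.41 to 0.24), with a limma adjusted p of 0.914, or 0.756 with the block, and an exact permutation p of 0.7. *Osr1* was above *Osr2* in all 6 libraries, by 1.05 to 1.76 times in FPKM. The log2 difference between the 2 genes was 0.53 ± 0.39 in WT and 0.43 ± 0.23 in CKO (SD, n = 3), and its change of -0.10 had an exact permutation p of 0.8. Pearson's r between them was 0.71 over the 6 libraries, and between *Irx3* and *Osr1* it was -0.40.

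**Figure D3:**
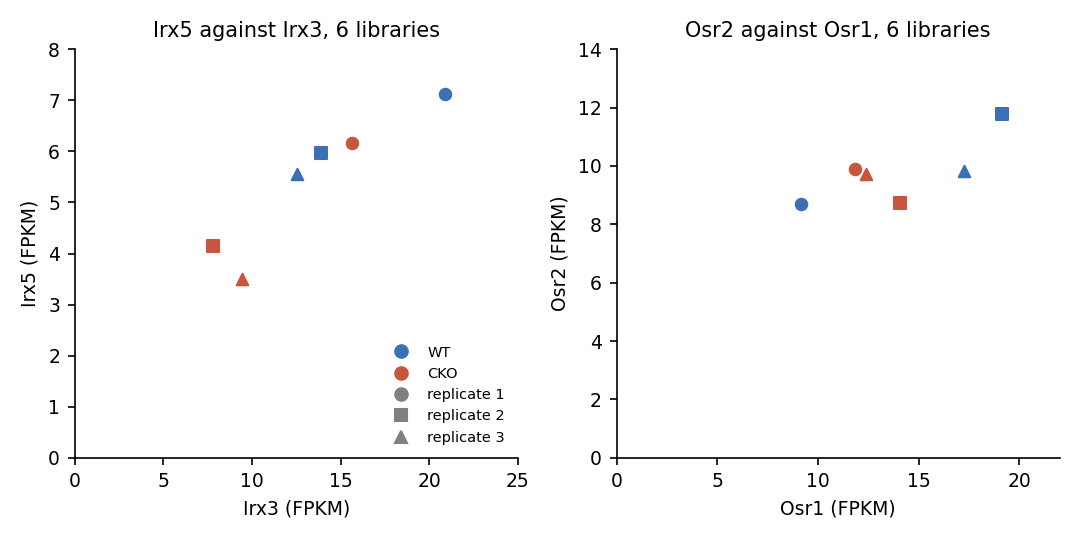
FPKM of *Irx5* against *Irx3* (left) and of *Osr2* against *Osr1* (right), 1 point per library, with the group as colour and the replicate number as symbol. The Irx points lie near 1 line (r = 0.91 on the log2 scale) with CKO replicates 2 and 3 at its lower end, and WT replicate 1 is highest for both Irx genes and lowest for both Osr genes.

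The 3 low genes rest on few reads. *Irx2* was 0.676, 0.751 and 0.894 FPKM in WT replicates 1 to 3 (40, 59 and 64 reads) and 0.606, 1.10 and 0.830 FPKM in CKO (36, 69 and 65 reads). The groups overlapped, and the highest and the lowest value were both CKO libraries. Its log2 fold change was 0.09 ± 0.25 (SE, n = 3; 95% confidence interval -0.49 to 0.66), with a limma adjusted p of 0.950, or 0.865 with the block. The WT spread of *Irx2* was 1.05 times that of read counting, so at this depth its WT libraries could not be told apart.

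*Irx1*, which shares a cluster with *Irx2* and *Irx4*, was 0.233, 0.606 and 0.682 FPKM in WT (11, 38 and 39 reads) and 0.337, 0.279 and 0.304 FPKM in CKO (16, 14 and 19 reads). WT replicates 2 and 3 were above all CKO libraries and WT replicate 1 below them, the same arrangement as for *Osr1*. The 11 reads of WT replicate 1 have an exact Poisson 95% interval of 0.116 to 0.417 FPKM, for counting error only, which takes in all 3 CKO values. The exact permutation p was 0.4, and *Irx1* was under the level needed for the limma test. The log2 difference between *Irx1* and *Irx2* was -0.61 ± 0.53 in WT and -1.18 ± 0.48 in CKO (SD, n = 3), a change of -0.57 with an exact permutation p of 0.3. Leaving out WT replicate 1 made it -0.88, and leaving out CKO replicate 2 made it -0.33.

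*Irx6* was 0.0988, 0.124 and 0.0952 FPKM in WT (6, 10 and 7 reads) and 0.148, 0.124 and 0.149 FPKM in CKO (9, 8 and 12 reads). The groups did not overlap, but WT replicate 2 and CKO replicate 2 differed only beyond the third digit, and the exact permutation p of 0.1 is the smallest that 3 against 3 libraries can give. Among all tested genes 14.5% had groups that did not overlap, and *Irx6* itself was not tested by limma. The spread within each group was below that of read counting, and a difference of this size was not resolved at 6 to 12 reads.

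*Irx4*, the remaining Irx paralog, was at 0.660, 0.465 and 0.809 FPKM in WT and 0.233, 0.401 and 0.627 FPKM in CKO. CKO replicate 3 was within the WT range and the other 2 CKO values were below it. It lies 626 kb from *Irx2*, and its log2 fold change of -0.56 had a limma adjusted p of 0.723, or 0.312 with the block. Without CKO replicate 1, which had 11 reads, the change was -0.28.

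Genes that work with the Irx and Osr factors, or mark the regions where they act, were examined as lists. Of 15 early limb genes linked to *Irx3* and *Irx5*, among them the Hedgehog pathway and Sall genes, all were tested, 8 were lower and 7 higher in CKO, and the median log2 fold change was -0.0033. None passed the adjusted threshold without the block. With it 1 fell, *Tbx5*, the T-box factor that starts forelimb outgrowth. It went from 20.3, 19.1 and 19.2 FPKM in WT to 15.3, 7.30 and 9.58 FPKM in CKO, without overlap. Among all tested genes 14.5% had groups that did not overlap, in either direction. *Tbx5* had a log2 fold change of -0.93, with a limma adjusted p of 0.358, or 0.0073 with the block. Like *Irx3* and *Irx5*, it was highest among CKO libraries in replicate 1.

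Of 8 proximal limb genes, 7 were lower and 1 was higher, with a median log2 fold change of -0.28. The proximal Hox genes *Hoxa9* and *Hoxd9* fell with the block. *Hoxa9* was 24.5 ± 1.99 FPKM in WT and 15.7 ± 3.69 FPKM in CKO, a log2 fold change of -0.65 with limma adjusted p values of 0.358 without and 0.0094 with the block. *Hoxd9* was 25.4 ± 4.70 FPKM and 17.5 ± 4.41 FPKM, a change of -0.55 with adjusted p values of 0.553 and 0.0278. The size of both changes was near those of *Irx3* and *Irx5*. Of 8 distal limb genes, 5 were lower and 3 higher, the median was -0.14, and none passed in either fit. The smallest unadjusted p values there belonged to *Hoxa13*, the factor of the hand plate, with a log2 fold change of 0.38 and a limma adjusted p of 0.642, and to *Cyp26b1*, an enzyme that degrades retinoic acid, with -0.28 and 0.837.

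The lists for the tissues of the Osr genes held no call in either fit. Of 12 joint interzone genes 9 were tested, and 8 were lower and 1 higher, with a median of -0.17. *Erg*, a transcription factor of joint cartilage, differed by -0.52 on the log2 scale (limma adjusted p of 0.651, or 0.0601 with the block), and *Enpp2* by -0.37 (0.692 and 0.153). Of 17 connective tissue genes 15 were tested, and 10 were lower and 5 higher, with a median of -0.15. The fold change of *Scx*, the tendon progenitor factor, was -0.58 on the log2 scale (limma adjusted p of 0.760, or 0.0575 with the block) and that of *Pdgfra*, a receptor of mesenchymal fibroblasts, was -0.17 (0.751 and 0.394). The WT values of *Scx*, 14.5, 43.9 and 32.6 FPKM, had the same order of replicates as those of *Osr1*.

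**Figure D4:**
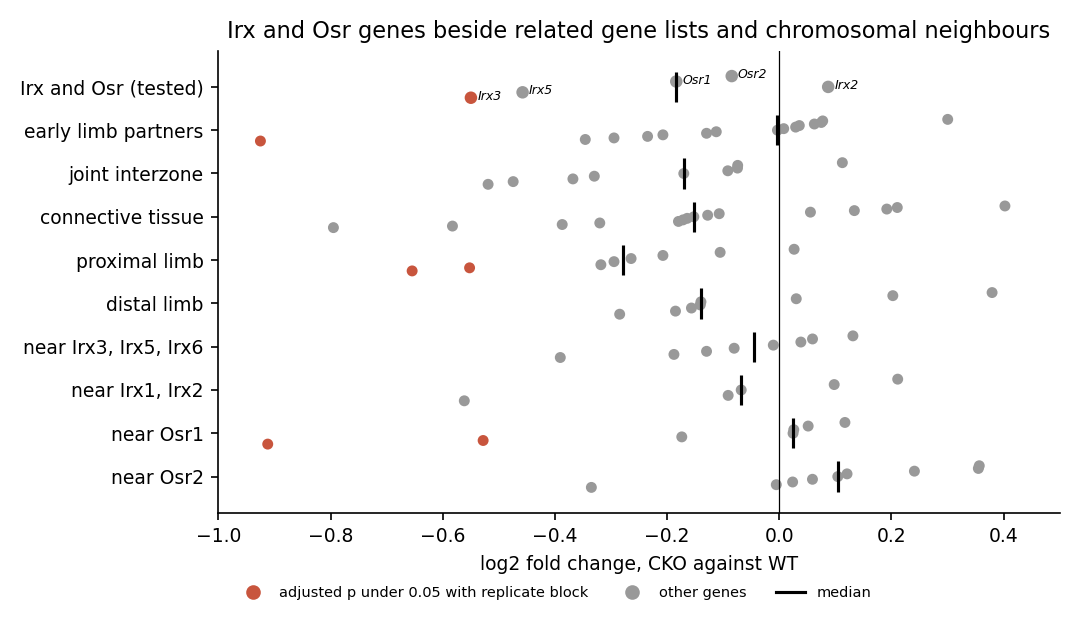
Log2 fold change of CKO against WT for the tested Irx and Osr genes, for 5 lists of related genes and for genes within 1 Mb of a member. Each point is a gene, the bar is the median, and red marks an adjusted p under 0.05 with the replicate block. The red points are *Irx3*, *Tbx5*, *Hoxa9*, *Hoxd9* and, near *Osr1*, *Ttc32* and *Rdh14*, all below 0.

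The genes that lie near the members on the chromosome were examined in the same fit, within 1 Mb. Around *Irx3*, *Irx5* and *Irx6*, 8 of 19 genes were tested, 5 were lower and 3 higher, the median was -0.05, and none passed in either fit. The nearest tested gene to *Irx3*, *Fto*, whose introns hold long-range enhancers of *Irx3*, lies 130 kb away and was 7.52 ± 0.582 FPKM in WT and 7.45 ± 0.476 FPKM in CKO, named after its values were seen. *Rpgrip1l*, a ciliary gene 485 kb from *Irx3*, was lower in all CKO libraries, with a log2 fold change of -0.39 and a limma adjusted p of 0.580, or 0.254 with the block. *Mmp2*, a matrix protease gene 146 kb from *Irx6*, differed by 0.13 with an adjusted p of 0.855. The log2 fold changes of *Irx3* and *Irx5* were larger in size than those of all 8 tested neighbours, but the gap to *Rpgrip1l* was not tested. Without the block *Rpgrip1l* had an unadjusted limma p of 0.0460, against 0.0921 for *Irx3* and 0.0679 for *Irx5*.

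Around *Irx1* and *Irx2*, 5 of 6 genes were tested, *Irx4* among them, with 3 lower, 2 higher and none called. The next smallest unadjusted p after *Irx4* was that of *Lpcat1*, with a log2 fold change of -0.09 and a limma adjusted p of 0.876. Around *Osr2*, 9 of 16 genes were tested, 2 were lower and 7 higher, the median was 0.10 and none passed. *Pop1*, a subunit gene of RNase P, differed by 0.36 (limma adjusted p of 0.601) and *Spag1* by -0.34 (0.732).

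Around *Osr1*, 7 of 8 genes were tested, 3 were lower and 4 higher, and the median was 0.02. Here 2 genes fell with the block. *Ttc32*, 528 kb from *Osr1*, was 2.58 ± 0.705 FPKM in WT and 1.30 ± 0.231 FPKM in CKO, with a log2 fold change of -0.91 and limma adjusted p values of 0.354 without and 0.0207 with the block. *Rdh14*, a retinol dehydrogenase gene 809 kb away, had a log2 fold change of -0.53 with adjusted p values of 0.726 and 0.0490. Over the lists and neighbours together, 82 different genes were tested, of which 0 passed without the block and 5 with it, against 0.065% and 2.81% of all genes.

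For each tested member, the genes whose log2 levels followed it most closely over the 6 libraries were sought among 11186 genes with a mean of at least 1 FPKM. With 6 points many genes reach a high r by library differences alone, so these are descriptions without a test. *Irx3* was followed most closely by *Lipe* and *Tmem200b*, with r of 0.99 for both, and 172 genes had r over 0.95. *Irx5* was followed by *Sgsh* and *Fam43a*, with r of 0.99 for both, and *Osr1* by *Col3a1*, a collagen gene of connective tissue, and *Ntn1*, a secreted guidance factor, with r of 0.98 for both. Each of the latter members had 35 genes with r over 0.95. For *Osr2* these were *Bricd5* (r of 0.99) and *Smpd2* (0.98), and for *Irx2* *Acadsb* (0.995) and *Stk3* (0.99), of which *Stk3* also lies 117 kb from *Osr2*. *Irx2* ran against *Irx3* over the libraries, with r of -0.84.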

How the data were processed

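RNA-seq values of 3 WT and 3 CKO limb bud samples were analysed, and the other 28 of the 34 samples of the series (ATAC-seq, CUT&RUN and Hi-C) were not analysed here. The authors deposited 1 table of FPKM per gene and library, made from stranded mRNA libraries. The submitters' processing notes name HISAT2 2.1.0, featureCounts 1.6.3 and mm10 among their tools without roles. FPKM were used as deposited. A library size was inferred for each library from its low values. FPKM times merged exon length (GENCODE vM21) and this size was a whole read number within 0.1 in all libraries for 92.6% of the genes in the annotation. The same held for all 7 members, which gave the reads quoted.

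Genes averaging 0.5 FPKM or more over the 6 libraries were tested on log2(FPKM + 0.1) with limma 3.58.1 (R 4.3.3, mean-variance trend, Benjamini-Hochberg adjustment). The pseudocount of 0.1 makes the changes of weakly expressed genes look smaller. Single values were compared by two-sided exact permutation tests (R 4.3.3). The exact Poisson interval was computed with SciPy 1.17.1. On simulated data with 200 changed genes the fit recovered 62.5% without and 91.0% with the block. The unchanged genes were built without any group difference, so false calls could not arise and their rate was not measured. Recovery of genes with log2 fold changes of the size seen for the members was not tested on its own. Limma p values set the group difference against the spread between these samples within a group, moderated over all genes. In the blocked fit that spread is what remains after the replicate number is taken out. Replicate numbers are shared between the groups in the labels, without a stated meaning. Deviations of same-numbered libraries from their group means correlated over genes with r of 0.64, 0.44 and 0.27, so blocked values are given where they change a call. WT replicate 2 correlated more with CKO replicate 3 (0.49), and WT replicate 3 more with CKO replicate 2 (0.31), than with their own numbers, so numbers 2 and 3 were not told apart by this check.

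The members and lists were chosen with earlier results of these data known. Named genes were the members, *Irx4*, list genes and neighbours past the adjusted threshold in either fit (where none passed, the 2 with the smallest unadjusted p) and the 2 genes most like each member. Alternatives were other pseudocounts (0.5 and 1), filters, scalings, no trend, voom on recovered reads, the block, and leaving out libraries.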

Additional observations from a re-analysis of the deposited data

How the results depend on the processing

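Without the replicate block, none of the 5 tested Irx and Osr genes passed the adjusted threshold under any alternative pseudocount, filter, scaling, trend setting or single library left out. Blocking on the replicate number was the choice that mattered. It called 1 member (*Irx3*) and changed the call of no other, voom on recovered reads with the block called 2 (*Irx3* with an adjusted p of 0.0063 and *Irx5* with 0.0367), and the blocked fits that left out 1 number each called 0 to 3, 3 without number 1 (*Irx3*, *Irx5* and *Osr1*) and 1 without number 3. Replicates 2 and 3 alone, without the block, called 3 (*Irx3*, *Irx5* and *Osr1*). Leaving out a number or using replicates 2 and 3 alone was chosen after seeing the data. Over all genes the count past the adjusted threshold was 8, and it was 14 after quantile normalization, 346 with the replicate block, 644 with voom and the block, 1863 in replicates 2 and 3 alone, 1 to 23 without 1 library each and 86 to 2277 in the blocked fits without 1 number each (2277, 86 and 204 without numbers 1, 2 and 3). In the gene lists and neighbours the block raised the calls from 0 to 5. The blocked calls for the early limb genes (1), proximal limb genes (2) and *Osr1* neighbours (2) make up these 5.

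*Irx3* and *Irx5* were lower in CKO in all settings, with log2 fold changes of -0.84 to -0.33 and -0.68 to -0.28. The smaller changes turned sign with single libraries. Over the libraries left out, *Irx2* ran from -0.10 to 0.28, *Osr1* from -0.51 to 0.017 and *Osr2* from -0.19 to 0.031. *Irx2* was at -0.10 without CKO replicate 2 and at -0.12 in the blocked fit without number 2. *Osr1* was at 0.017 without WT replicate 2, and *Osr2* at 0.031 without it and at 0.087 in the blocked fit without number 2. The difference between *Irx3* and *Irx5* ran from -0.19 to 0.065 over the libraries left out, positive at 0.026 without WT replicate 1 and at 0.065 without CKO replicate 2. That between *Irx1* and *Irx2* ran from -0.88 to -0.33 and was -0.36 and -0.24 at pseudocounts of 0.5 and 1. That between *Osr1* and *Osr2* ran from -0.32 to 0.042, positive at 0.042 without WT replicate 3. *Irx4* was at -0.33 and -0.22 at the same pseudocounts and, where it could be tested, at -0.84 to -0.28 with 1 library left out. Voom, which divides by the summed reads, moved log2 fold changes by a median of -0.097 over all genes, and 85.4% of its blocked calls were lower in CKO, against 59.8% of blocked calls on FPKM. It gave, without and with the block, -0.66 and -0.64 for *Irx3* and -0.58 and -0.55 for *Irx5*. In the same order it gave -0.29 and -0.34 for *Osr1*, -0.19 and -0.19 for *Osr2* and 0.0051 and 0.011 for *Irx2*. The cause of the other differences was not tested. Depth limits *Irx1* and *Irx6*, which were under the filter; without a filter their log2 fold changes were -0.49 and 0.22 with limma adjusted p values of 0.788 and 0.800. *Irx2* could not be tested under a filter of 1 FPKM.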
